A study of Mus musculus with 2 samples.

Results

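The interferon regulatory factors (IRFs) are a family of transcription factors that bind DNA through a shared tryptophan-rich domain at their amino terminus. They switch on the genes for type I interferons, carry the signal of the interferon receptors to DNA, and shape the development and activation of macrophages, dendritic cells and B cells. The members described here are Irf1, Irf2, Irf3, Irf4, Irf5, Irf7, Irf8 and Irf9, taken by symbol, and all 8 had a row among the 50608 rows of the expression table.

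RNA of mouse peritoneal macrophages, phagocytes of the abdominal cavity, was sequenced in 2 libraries. One came from cells treated with DMSO, a solvent. The other came from cells treated with GW3965, a compound that activates liver X receptors (LXRs), nuclear receptors that respond to oxidised cholesterol. Both came from C57BL6J mice of pooled sexes, with a stage recorded as E15.5, and shared every other label; no stimulus, dose, treatment time or genetic change is labelled. The design asks how gene expression differs between the solvent and the agonist, and the column read as GW3965 shares only the opening letters of its name with that sample's description. Values are FPKM, sequenced fragments relative to gene length and sequencing depth. Each group is 1 library, so no difference can be set against a spread between replicates.

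The recovered depth was 101866067 reads in the DMSO library and 75287121 in the GW3965 library. Where 2 values stand side by side, DMSO comes before GW3965. Change is given as the log2 of (GW3965 FPKM + 1)/(DMSO FPKM + 1), a scale that understates low genes. A row counted as measured at a mean of at least 1 FPKM (11889 rows) and as called at 1.5-fold. Measured rows had a median log2 ratio of 0.24, and a value minus that median is called centred. Of 14 macrophage markers with a row 9 were measured, and Cd163 and Marco were among the 5 that were not. Several general macrophage genes were abundant. Lyz2, a lysozyme, had 4052 FPKM under DMSO and 4822 FPKM under GW3965, and Cd68, a lysosomal membrane protein, had 235 and 238 FPKM. Of the 9 measured markers 1 was called higher as deposited and centred, against 3.46% and 1.38% of measured rows. It was Mertk, at 6.79 and 13.9 FPKM, singled out after its values were seen. Markers of resident peritoneal macrophages were low, with Gata6 at 0.607 and 0.618 FPKM and Timd4 at 0.072 and 0.135 FPKM, both singled out after their values were seen. Of 10 LXR targets 9 were called higher, against 3.46% of measured rows. Abca1 was among the 9, at 19.9 FPKM under DMSO and 261 FPKM under GW3965.

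Stretches upstream of Irf1, Irf2 and Irf8 are shown because only these 3 members had windows with the letters of the interferon-linked motifs searched. The stretches were not chosen by ratio. They come from RefSeq start-site windows on GRCm38.p6, of 250 bases before to 50 after an annotated start, and capitals mark the motif matches. Each is on the plus strand, with Irf1 at chr11:53769889-53769967, Irf2 at chr8:46739495-46739564 and Irf8 at chr8:120736152-120736248.
Irf1: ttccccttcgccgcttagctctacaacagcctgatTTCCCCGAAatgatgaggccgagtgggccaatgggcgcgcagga
Irf2: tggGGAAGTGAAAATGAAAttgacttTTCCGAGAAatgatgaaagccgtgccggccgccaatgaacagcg
Irf8: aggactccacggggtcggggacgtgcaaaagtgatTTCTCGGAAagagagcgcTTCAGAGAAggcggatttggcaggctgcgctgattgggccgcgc

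The gamma-activated site, searched as TTCNNNGAA, is an element of genes induced by interferon gamma. It lay from -90 to -82 in Irf1, counted from the RefSeq start as 0, from -224 to -216 in Irf2, and at both -171 to -163 and -153 to -145 in Irf8. Its letters read the same on either strand. They occurred in 3 of the 11 windows of the members and in 8.3% of all 32851 windows. The core of the interferon-stimulated response element, searched as GAAANNGAAA on both strands, is bound by IRFs themselves. It was found only in Irf2 among these windows, from -241 to -232, against 3.44% of all windows. An ETS-IRF composite element, searched as GGAANNGAAA on both strands, is read by IRF4 or IRF8 together with the ETS factor PU.1. It also occurred in Irf2, from -247 to -238, where it overlaps the response element, and in 2.72% of all windows. No member window held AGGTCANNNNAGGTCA, a strict form of the LXR binding repeat, on either strand, and 0.0152% of all windows did. These matches describe letters in the windows and no binding was measured.

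**Figure D1:**
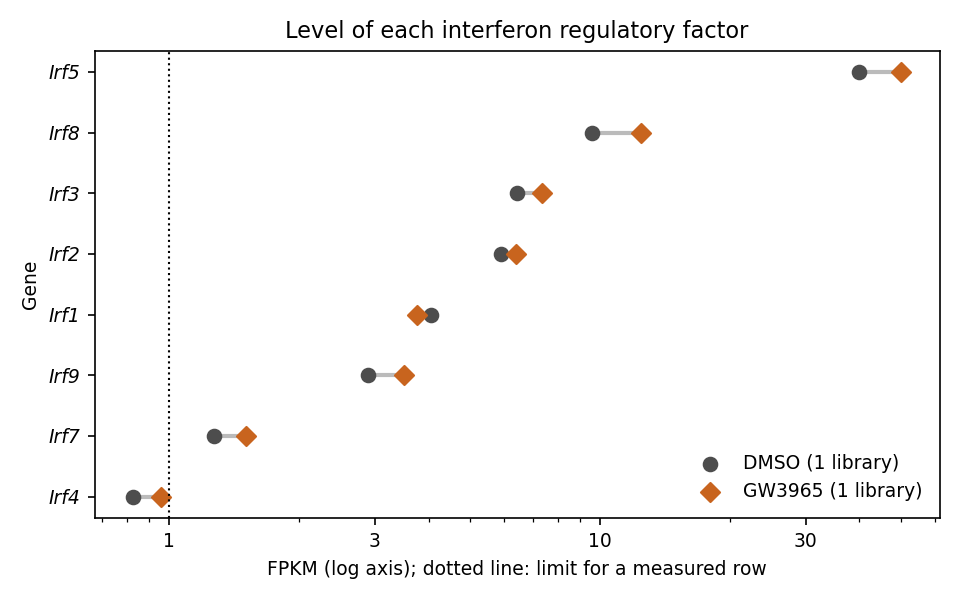
FPKM (log axis) of each of the 8 interferon regulatory factors in the DMSO library (grey circles) and the GW3965 library (orange diamonds), 1 library each, with a dotted line at 1 FPKM. Irf5 lies far to the right at 39.9 and 50.03 FPKM, Irf4 lies below the line in both libraries, and the order of the genes is the same in both.

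Irf5, which drives inflammatory cytokine genes downstream of Toll-like receptors, was by far the most abundant member. It had 39.9 FPKM under DMSO and 50.03 FPKM under GW3965, and held 56.3% and 58.3% of the summed FPKM of the 8 members. The order from high to low was Irf5, Irf8, Irf3, Irf2, Irf1, Irf9, Irf7 and Irf4 in both libraries. The highest level was 48.4 times the lowest in DMSO and 52.1 times in GW3965. FPKM is per length, so these levels can be set side by side. The annotation behind the lengths is not given, and other differences between genes in how reads are counted are not removed. Reads per gene were worked out from the steps of the FPKM values, and all intervals are 95% intervals that cover counting error only.

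For Irf1, Irf5, Irf8 and Irf9 a single whole-number solution for reads existed up to 1.5 times the annotated exon length. For Irf2, Irf3, Irf4 and Irf7 several did, and the one nearest the annotated length was used. For Irf7 that length was 4015 bases, more than the 3776 bases of the whole annotated gene, so its reads and interval are less certain. Neighbours in the order of levels did not overlap in these counting intervals under DMSO. The closest there were Irf3, at 6.14 to 6.71 FPKM under DMSO, and Irf2, at 5.71 to 6.07 FPKM. With the fewest reads that solve the values, Irf3 at 5.94 to 6.94 FPKM and Irf2 at 5.58 to 6.20 FPKM overlapped in DMSO, and they overlapped in GW3965 too. Under GW3965 the levels of Irf1 (3.55 to 3.97 FPKM) and Irf9 (3.33 to 3.70 FPKM) overlapped and could not be ordered by counting error, while the other neighbours were apart.

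No member was called higher or lower by 1.5-fold. Of the 7 measured members 0 were called higher, against 3.46% of measured rows, and 0 were called lower, against 0.0757%. After centring the members again gave 0 and 0, against 1.38% higher and 0.336% lower among measured rows. With shares this small, counts of 0 among 7 genes are near the background. The median log2 ratio of the 7 was 0.17, or -0.08 centred, against 0.24 for all measured rows. Of the 7, 5 lay below the median of all rows and 2 above it, and 6 were above and 1 below a ratio of 1 as deposited. Irf4 was not measured by the limit of 1 FPKM.

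**Figure D2:**
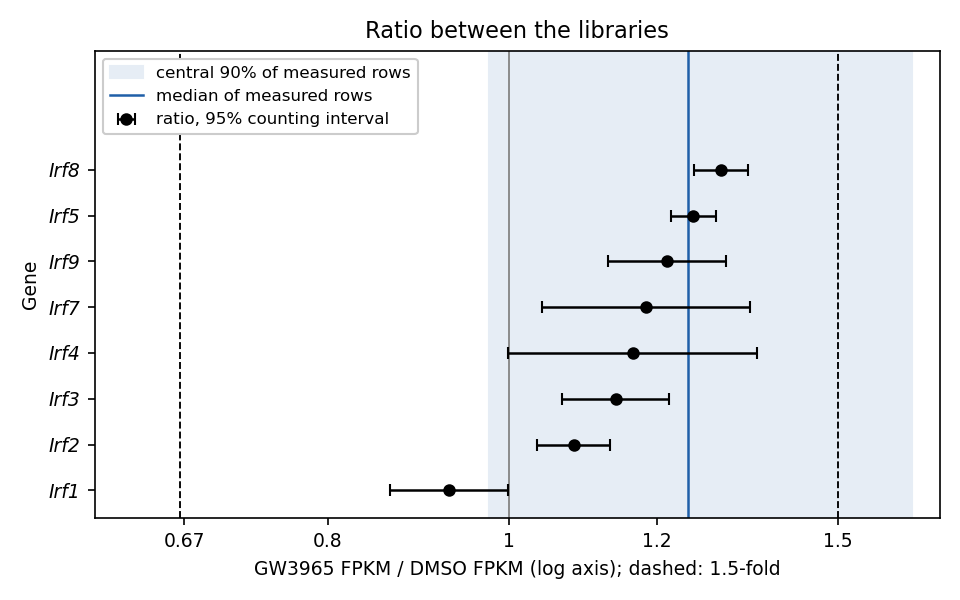
Ratio of GW3965 to DMSO FPKM (log axis) for each member, with its 95% counting interval; the shaded band is the central 90% of measured rows, the blue line their median and the dashed lines mark 1.5-fold. Irf1 is the only point left of 1 and left of the band, which runs from 0.976 to 1.64, and Irf8 is the farthest right at 1.30.

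Irf1 and Irf2 are a classical pair that bind the same sites, Irf1 mainly as an activator induced by interferon gamma and Irf2 mainly as a repressor. Irf1 (ENSMUSG00000018899.16, chr11:53770014-53778374, plus strand) had 4.04 FPKM under DMSO and 3.76 FPKM under GW3965, from 1805 and 1239 reads. It was the only member lower in the GW3965 library as deposited, although its log2 ratio turned to 0.13 with both libraries scaled to the same sum of FPKM. Rows above 200000 FPKM held 79.7% of that sum in DMSO and 65.9% in GW3965, so they largely set this scaling. With the same upper quartile, or centred on protein-coding rows, the log2 ratio of Irf1 was -0.32. As deposited its ratio was 0.929 (counting interval 0.863 to 0.999) and its log2 ratio -0.08, or -0.33 centred. Of the 11889 measured rows 334 had a lower log2 ratio than Irf1, a percentile of 2.82.

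Irf2 (ENSMUSG00000031627.9, chr8:46739732-46847458, plus strand) had 5.89 FPKM under DMSO and 6.37 FPKM under GW3965. Its ratio was 1.08 (1.03 to 1.13), with a log2 ratio of 0.10, or -0.15 centred. Irf1 therefore stood at 0.687 of the Irf2 level in DMSO and at 0.589 in GW3965. This ratio inside a library does not depend on the scaling between the libraries. Its change was 0.858 (0.787 to 0.935), and the interval lay below 1 with the fewest reads as well (0.770 to 0.956).

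Irf3 and Irf7 are the factors that TBK1 and related kinases phosphorylate after nucleic acid sensing to turn on interferon genes, Irf3 being constitutive and Irf7 itself an interferon-induced gene. Irf3 (ENSMUSG00000003184.15, chr7:44997648-45002848, plus strand) had 6.42 FPKM under DMSO and 7.32 FPKM under GW3965. Its ratio was 1.14 (1.07 to 1.22), with a centred log2 ratio of -0.08. Irf7 (ENSMUSG00000025498.15, chr7:141262706-141266481, minus strand) stood at 1.27 and 1.51 FPKM, with a ratio of 1.18 (1.04 to 1.35) and -0.10 as the centred log2 ratio. With the fewest reads that solve its values, 104 and 91, the interval of Irf7 widened to between 0.884 and 1.58. Irf3 was thus 5.05 times as abundant as Irf7 in DMSO and 4.87 times in GW3965, a change of 0.963 (0.834 to 1.11) whose interval includes 1.

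Irf9 is the DNA-binding subunit of ISGF3, the complex that type I interferon receptors activate. It (ENSMUSG00000002325.15, chr14:55603571-55610030, plus strand) had 2.89 FPKM under DMSO and 3.51 FPKM under GW3965, from 1566 and 1406 reads. Its ratio was 1.21 (1.13 to 1.31) and its centred log2 ratio was -0.03. Its partner Stat2 stood somewhat higher, at 5.94 and 6.92 FPKM. It lay close to the median of all rows, as Irf9 did, at a centred value of -0.05.

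Irf8 and Irf4 are close relatives that bind DNA weakly alone and pair with PU.1 or with BATF and AP-1 proteins. Irf8 is required for normal monocyte and dendritic cell development, and Irf4 acts in plasma cells, in some dendritic cells and in macrophages exposed to interleukin 4. Irf8 (ENSMUSG00000041515.10, chr8:120736358-120756694, plus strand) had 9.57 FPKM under DMSO and 12.4 FPKM under GW3965, from 6941 and 6660 reads. Its ratio of 1.30 (1.26 to 1.34) was the highest of the 8, with a log2 ratio of 0.34, or 0.10 centred. That log2 ratio placed it at the 75.6th percentile of measured rows, well inside their central 90%, which ran from -0.03 to 0.52. By the plain ratio, with nothing added, its percentile was lower, at 62.2. Irf4 (ENSMUSG00000021356.10, chr13:30749226-30766976, plus strand) had only 0.824 FPKM under DMSO and 0.960 FPKM under GW3965, or 1.16 times as much (0.998 to 1.36).

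Irf5 (ENSMUSG00000029771.12, chr6:29526625-29541871, plus strand) was read 10409 times in DMSO and 9651 times in GW3965, the most of any member. Its ratio was 1.25 (1.22 to 1.29), with a log2 ratio of 0.32, or 0.08 centred. By log2 ratio its percentile was 69.9, but by the plain ratio it was 51.7, close to the median of measured rows. Irf5 and Irf8 kept nearly the same proportion, with Irf5 at 4.17 times Irf8 in DMSO and 4.03 times in GW3965. That change was 0.966, with an interval of 0.925 to 1.0096 that includes 1. Both had positive log2 ratios as deposited, after centring, and with the libraries scaled to the same sum or the same upper quartile. On the last of these scales the values were small, 0.026 for Irf5 and 0.069 for Irf8.

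The ratios between members inside a library were compared for all 28 pairs. In 12 pairs the counting interval of the change left out 1, and all 7 pairs with Irf1 were among them. The other 5 set Irf2 against Irf5, Irf8 or Irf9 and Irf3 against Irf5 or Irf8. Relative to Irf8, Irf1 went from 0.422 to 0.302, a change of 0.715 (0.660 to 0.775), the farthest from 1 of the 28. Irf1 also changed by 0.740 (0.685 to 0.8005) relative to Irf5. With the fewest reads 9 of the 28 intervals left out 1, 5 of them with Irf1. The 7 pairs with Irf1 all use the same reads of Irf1, so they are not 7 separate results. The intervals were not adjusted for the 28 pairs. Pairs of other genes were not examined, so the count of 12 has no background beside it. The spread between cultures or mice, which these intervals do not hold, was not measured.

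**Figure D3:**
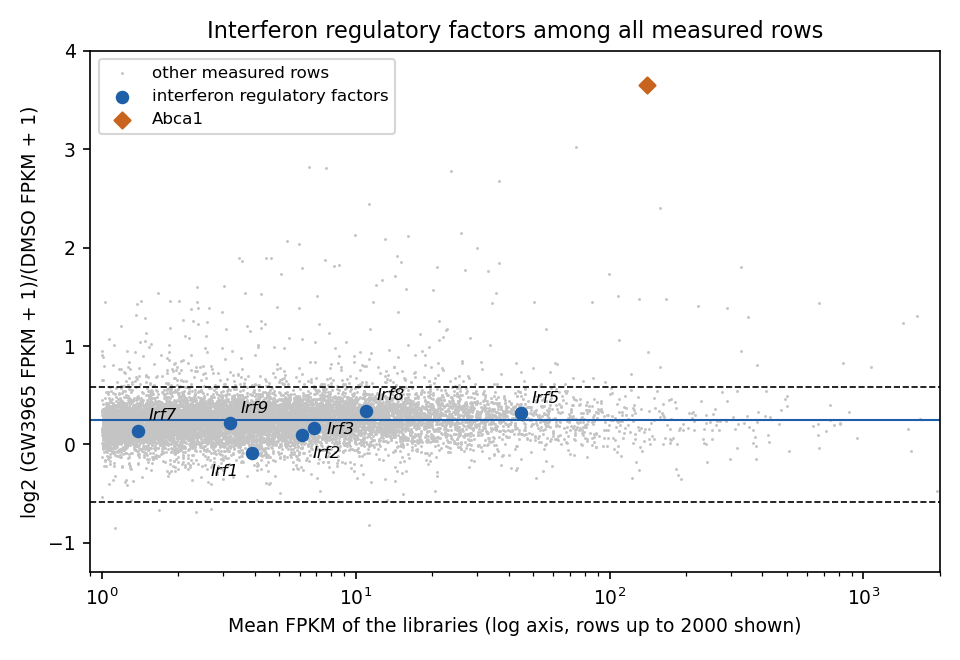
Log2 ratio of GW3965 to DMSO (FPKM + 1) against mean FPKM (log axis) for the measured rows (grey) with the 7 measured interferon regulatory factors (blue) and Abca1 (orange diamond); the blue line is the median of 0.24 and the dashed lines mark 1.5-fold. The 7 genes lie between the dashed lines, Irf1 at -0.08 below the 5th percentile of rows (-0.03), while Abca1 stands at 3.65.

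Other genes overlap or neighbour the members, and no label states that reads were counted by strand, so reads from overlapping opposite-strand genes cannot be told apart. Of 14 genes annotated within 5000 bases 9 had a row, and the remaining 5 were not analysed here. Among those 5 is Gm20388, on the same strand as Irf8, whose span covers all 20337 bases of Irf8. Bcl2l12, on the opposite strand and sharing 1065 bases with Irf3, had 1.25 FPKM under DMSO and 1.27 FPKM under GW3965. Scaf1, which ends 100 bases from Irf3, had 4.24 and 4.08 FPKM, and Gm15545, 3051 bases away, had 0.683 and 0.498 FPKM. Tnpo3, a nuclear import receptor gene that overlaps the end of Irf5 by 1045 bases, had 4.27 and 5.40 FPKM, far below Irf5. Phrf1 shares 45 bases with Irf7 and had 2.04 and 1.84 FPKM, and Cdhr5 nearby had 0.068 and 0.051 FPKM. Rnf31, on the same strand as Irf9 and sharing 123 bases with it, had 3.26 and 3.14 FPKM. Gm17334 lies inside Irf1 on the opposite strand and had 0.548 and 0.643 FPKM, and Gm16675 upstream of Irf2 had 0.533 and 0.689 FPKM.

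Genes that act before the IRFs were described from fixed lists. None of 12 interferon genes was measured, and the highest, Ifnk, had 0.575 FPKM under DMSO and 0.797 FPKM under GW3965, singled out after its value was seen. Ifnb1, the interferon gene that IRF3 switches on, had 0.044 and 0.079 FPKM. Of all measured rows 3.46% were called higher and 0.0757% lower, or 1.38% and 0.336% after centring. Counts of 0 or 1 in this and the later lists are too small to be told from these shares. Of 14 measured receptor, Janus kinase and STAT genes 1 was called higher, 0 after centring, and none lower. It was Ifngr1, the ligand-binding chain of the interferon gamma receptor, at 13.97 FPKM under DMSO and 23.1 FPKM under GW3965, a centred log2 ratio of 0.45. The other chains had centred values of -0.11 for Ifngr2, 0.10 for Ifnar1 and 0.22 for Ifnar2, and Il10rb had 0.17. The list's median log2 ratio was 0.23.

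All 24 sensor, adaptor and kinase genes upstream of IRF3, IRF5 and IRF7 were measured, with a median log2 ratio of 0.20. One was called higher, against 3.46% of measured rows, 0 after centring, and none lower. It was the lipopolysaccharide receptor Tlr4, at 10.02 FPKM under DMSO and 16.5 FPKM under GW3965. Tbk1, the kinase that phosphorylates IRF3, had 14.5 and 18.0 FPKM. Chuk, Azi2 and Tlr8 had centred log2 ratios of 0.27, 0.14 and 0.12. Of 16 measured negative regulators 1 was called higher as deposited and centred, against 3.46% and 1.38% of measured rows. It was Tnfaip3, a ubiquitin-editing inhibitor of NF-kappaB, at 3.62 and 8.69 FPKM. Sirt1, Pias1 and Pias2 had centred values of 0.12, 0.09 and 0.08, and the list's median log2 ratio was 0.21.

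The DNA-binding partners and corepressors of the IRFs gave 0 called genes of 15 measured, and 14 of the 15 lay below the median of all rows. Their median log2 ratio was 0.08, or -0.16 centred. Spi1, which encodes PU.1, the partner of IRF4 and IRF8, was abundant at 49.3 FPKM under DMSO and 52.2 FPKM under GW3965. Batf had 3.79 and 4.90 FPKM, the only one of the 15 above the median of all rows, while Batf3 was not measured, at 0.569 and 0.646 FPKM. The IRF2 binding corepressor Irf2bp2 had 21.02 and 24.5 FPKM and its relative Irf2bpl 4.62 and 5.19 FPKM, and Junb had 17.6 and 19.8 FPKM.

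Genes downstream of the IRFs were described in the same way. Of 25 ISGF3 targets 13 were measured and 0 called, with a median log2 ratio of 0.20, or -0.04 centred. Among them Oas1a, a sensor of double-stranded RNA, had 10.3 FPKM under DMSO and 14.3 FPKM under GW3965, the antiviral kinase Eif2ak2 3.01 and 4.11 FPKM, Isg15 1.47 and 2.01 FPKM, and Trim30a 9.52 and 11.6 FPKM. Of 17 measured IRF1 targets, mostly antigen presentation and GTPase genes, 1 was called higher, against 3.46% of measured rows, and 0 after centring. Of the 17, 13 lay below the median of all rows. The list's median log2 ratio was 0.07, or -0.17 centred. The called gene was Il18bp, a decoy that binds interleukin 18, at 1.67 and 3.41 FPKM. Casp1 and Il15 had centred log2 ratios of 0.23 and 0.07, and Cd274 had 14.4 and 17.2 FPKM.

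Of 16 measured IRF8 targets in macrophages 1 was called higher, against 3.46% of measured rows, and 0 after centring. Their median log2 ratio was 0.19. Naip5, a sensor of bacterial flagellin, had 5.16 FPKM under DMSO and 8.84 FPKM under GW3965, and its near relative Naip2 had 15.6 and 23.6 FPKM. Reads shared between these copies would make both uncertain. Ctsc and Ly86 had centred values of 0.23 and 0.22. Of 20 polarisation genes linked to IRF4 and IRF5 only 5 were measured and 0 called, at a median log2 ratio of 0.24. Ccl3 had 41.3 and 53.9 FPKM, the chitinase-like Chil3 4.44 and 6.08 FPKM, the mannose receptor Mrc1 12.7 and 15.2 FPKM, and Tnf 1.51 and 1.89 FPKM.

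**Figure D4:**
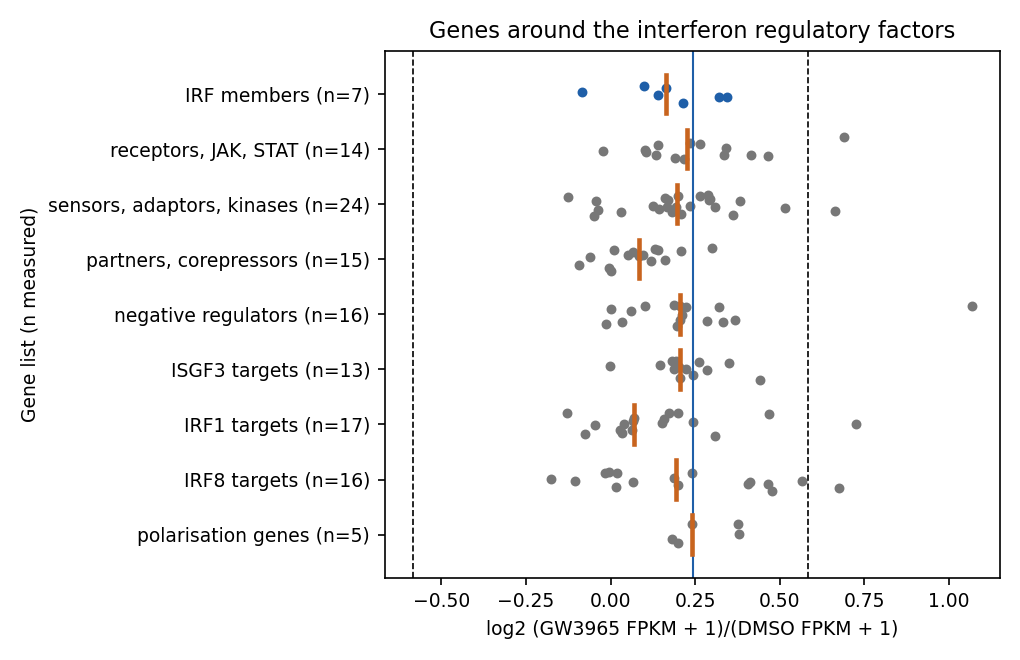
Log2 ratio of GW3965 to DMSO (FPKM + 1) for each measured gene of the IRF family and of 8 lists around it; each point is a gene, orange bars are list medians, the blue line is the median of all measured rows (0.24) and the dashed lines mark 1.5-fold. The list medians run from 0.07 for IRF1 targets to 0.24 for polarisation genes, and Tnfaip3 is the lone point near 1.07.

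Several members are also expressed by B cells and dendritic cells, and in bulk RNA fewer cells of a type and less RNA per cell cannot be told apart. Of 13 B and plasma cell markers with a row 7 were measured, and their summed level was 119 FPKM under DMSO and 184 FPKM under GW3965, none being at 0. Ighm, the IgM heavy chain, accounted for most of that difference at 9.26 and 64.4 FPKM. The other abundant ones are also expressed outside B cells, Sdc1 at 84.6 and 89.2 FPKM, Xbp1 at 12.4 and 15.7 FPKM and Cd22 at 8.20 and 9.11 FPKM.

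Of 15 dendritic cell markers 1 was measured, Itgax, which macrophages also express, at 116 and 107 FPKM. Tcf4, Batf3 and Ly6d came next, each below 1 FPKM in both libraries, and none of the 15 was at 0 in both. T and NK cell markers had 0 of 12 measured, the highest being Lck at 0.353 and 0.468 FPKM, followed by Cd3d, Cd4 and Cd3g. Of 11 neutrophil markers only 2 were measured, S100a8 at 3.29 and 3.60 FPKM and Mmp8 at 2.68 and 3.03 FPKM. They made up most of the list's sum of 6.75 and 7.76 FPKM. The other 9 were not measured, S100a9 among them at 0.145 and 0.112 FPKM. Of 13 mesothelial and fibroblast markers 7 were measured, and the list summed to 21.1 FPKM under DMSO and 31.9 FPKM under GW3965. It was led by Dcn at 6.91 and 11.6 FPKM and Col3a1 at 5.08 and 7.07 FPKM. The part of these other cells in the IRF values was not tested.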

How the data were processed

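The authors deposited FPKM values in 1 column per library, and these were used unchanged. Per the submitters' processing notes the tools were STAR 2.3.0 and HTSeq 0.5.4p3 on GRCm38 (mm10); for the annotation, strand setting, multi-mapping rule and filters nothing is given in the sources used here. Depth was recovered from low FPKM values. With 1 factor of 1.353 between the libraries, 95.4% of 23394 rows below 0.3 FPKM gave a ratio of whole reads to within rounding (largest denominator 60), against 5.38% with the factor moved by 1%. Exon lengths of GENCODE M21 less 99 bases gave the same depth in 150 of 8329 rows, against 45 for the next best reduction. A member's reads are the whole numbers, with a whole length, that return both printed FPKM values. Ratio intervals are exact conditional (Clopper-Pearson), level intervals exact Poisson, and intervals for pairs of members come from the conditional odds ratio.

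Members, gene lists and alternatives were chosen with earlier results of these data known. All members are named, and every annotated neighbour with a row, up to 4 measured genes per list by absolute log2 ratio, fixed receptors and partners, and up to 4 genes per marker list by level; some genes that meet these rules go unreported. No gene is named for a pattern like that of a member, since 2 libraries give 1 ratio per gene. With 1 library per group no test, p-value or replicate spread was possible. Alternatives were pseudocounts of 0.1 and 0.5, none added, no filter, a mean of at least 5 FPKM, 4 scalings and a 2-fold limit. Protein sequences were not used here. Software was scipy 1.17.1, numpy 2.4.6 and pandas 2.3.3 under Python 3.11.15, with figures from matplotlib 3.10.9.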

Additional observations from a re-analysis of the deposited data

How the results depend on the processing

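No paired analysis was possible because DMSO and GW3965 are single libraries. Under the 10 alternatives no member was called lower, and a member was called higher under 1 of them. The 2-fold limit and the mean of at least 5 FPKM could not add a call, because they only tighten the rule. With the same sum of FPKM in both libraries the count of members called higher was 1 (Irf8, log2 ratio 0.594), and the median log2 ratio went from 0.17 to 0.40. Irf8 passed the limit narrowly and Irf5 narrowly missed it (0.583). The share of all measured rows called on that scale was not worked out, so this count has no background beside it. Rows above 200000 FPKM, with 79.7% of the sum in DMSO and 65.9% in GW3965, largely set that scaling. That median was -0.078 after centring on the measured rows, -0.066 after centring on protein-coding rows, which was chosen after seeing the data, and -0.031 with the same upper quartile. Of 68 values of single members 42 stayed within their counting interval's half-width, 26 moved beyond it and 13 changed sign, all under a change of scaling. The 42 include every value under the 2-fold limit, no filter and the mean of at least 5 FPKM. Those settings leave the log2 ratio of a single gene as it is, so these values could not move. Depth limits Irf4 and Irf7 most, with at least 122 and 104 reads in DMSO, and the missing replicates limit every value.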
